A study of Mus musculus with 4 samples.

Results

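The cytosolic ribosomal protein genes made up 81 of the 20672 genes listed for these mouse kidney cells. They were chosen by symbol alone: 50 genes named for the large subunit of the ribosome (Rpl, with the stalk proteins Rplp0, Rplp1 and Rplp2) and 31 named for the small subunit (Rps, with Rpsa). The naming rule leaves out genes such as Rps3a1, Fau and Rack1, which also code for ribosomal components, the paralogues Rpl22l1, Rpl7l1 and Rps27rt, and 9 genes annotated as pseudogenes. No member took part in the gating of cells, which used other marker genes. Over all cells, 78 members had at least 1000 UMIs and 3 were near 0: Rpl3l had 17 UMIs in the transplant and 8, 6 and 18 at E15.5, E17.5 and P0, Rpl39l had 3 in all and Rpl10l 2.

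The data are droplet single-cell counts from 4 libraries, 1 for each group. Kidneys were taken at embryonic day 15.5 from ICR mice, at embryonic day 17.5 from C57BL/6 mice and on the day of birth (P0) from ICR mice. For the transplant library, C57BL/6N kidneys removed at E12.5 were grafted into epididymal fat, where they stayed 12 days. The labels give the host as C57BL/6N in one place and as immunodeficient NOD mice in another. All groups are labelled wild type. With 1 library a group, age and growth in a host cannot be told apart from strain or from the preparation of the library. The transplant gave 6268 cells with a median of 6276.5 UMIs. E15.5 gave 3463 cells with a median of 22585 UMIs, E17.5 4396 cells with 7197.5, and P0 7568 cells with 9885.5. Any 2 libraries shared between 27 and 108 barcodes.

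Cells were sorted into classes in software. A cell thinned to 3000 UMIs needed at least 3 markers of a class and a lead of 2 over any other class, and cells that met no class were left ungated. The classes are called by the markers that gated them, such as Six2 and Cited1 for nephron progenitors or Nphs1 and Podxl for podocytes. The gates held the markers of their own class at 1768 to 24250 CPM in classes of at least 50 cells. Podocyte-gated cells also held 1250 to 2879 CPM of the stroma list, which includes Tcf21, a gene podocytes express. Collecting duct-gated cells of the transplant held 8045 CPM of distal tubule markers. The transplant had 1 nephron progenitor-gated and 13 early nephron-gated cells, too few for use.

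Most ribosomal proteins are needed in equal copies in a ribosome, and the genes that code for ribosomal proteins are among the most transcribed of a growing cell. Their messenger RNAs share a start, the terminal oligopyrimidine tract, through which growth signalling by mTOR controls their translation. In the kidney, progenitors of the cap mesenchyme grow and divide, while podocytes leave the cell cycle as they mature. Mutations in several of these genes, RPS19 first among them, cause Diamond-Blackfan anaemia in people.

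The starts of 61 members could be read from the RefSeq promoter table of GRCm38.p6. The pyrimidine runs CTTTTC or CTTTCC, read on the transcribed strand and lying wholly within 10 bases on either side of the listed start, were present in 10 of these 61 (16.4%), against 1.27% of 15589 promoters. The motif CCGGAAG, the core bound by ETS factors, was present on either strand of the 300 bases in 39.3% of members and in 12.4% of all promoters, and AAGATGGC, the YY1 motif, in 6.56% and 3.42%. The 30 bases around the start are shown for 4 members with such a run whose values are described below, and for Rps19, which had none in that window. Capitals mark the run, and the start is the 16th base.
Rps27 (chr3:90213634-90213663, minus strand): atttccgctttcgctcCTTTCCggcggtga
Rpl12 (chr2:32961697-32961726, plus strand): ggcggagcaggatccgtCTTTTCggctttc
Rpl28 (chr7:4792950-4792979, plus strand): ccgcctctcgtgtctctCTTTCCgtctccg
Rps10 (chr17:27635230-27635259, minus strand): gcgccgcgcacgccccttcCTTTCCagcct
Rps19 (chr7:24884577-24884606, plus strand): tccgaaatctcgcgagactcgacgcccgac

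The 78 detected members were spread over a wide range of levels. Each molecule is tagged once near its 3′ end, so UMI shares are not divided by gene length. Averaged over classes and libraries, Rpl41 took 2.99% of ribosomal protein UMIs, Rps19 2.53% and Rpl13 2.49%, and which of them led differed between libraries and classes: in nephron progenitors Rpl41 was the highest member at E15.5, and Rpl13 at E17.5 and P0. Rps14, Rpl32, Rplp0, Rps18 and Rps29 lay between 1.96% and 2.18%. The median member had 1.21%, Rpl39, a small protein that lines the exit tunnel, 1.23%, and Rps27l 0.248%.

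Among classes of at least 50 cells in the 3 in situ libraries (those not grafted), ribosomal protein genes took the largest share of all UMIs in nephron progenitors and the smallest in podocytes. Podocyte-gated cells gave 24.2%, 12.7% and 16.2% of their UMIs to the 81 genes at E15.5, E17.5 and P0, against 34.6%, 32.6% and 35.6% in nephron progenitor-gated cells. The other classes of at least 50 cells lay between them in each of these libraries. Proximal tubule-gated cells gave 29.7%, 18.9% and 22.7%, collecting duct-gated cells 28.0%, 24.6% and 24.9%, stroma-gated cells 28.4%, 22.8% and 25.4%, endothelium-gated cells 31.2%, 23.6% and 23.3%, and early nephron-gated cells 31.5%, 26.6% and 28.8%. Loop of Henle-gated and mural-gated cells reached 50 cells at E17.5 and P0, with 20.5% and 18.7% for the loop and 20% and 20.8% for mural cells. In the transplant, among classes of at least 50 cells, the podocyte-gated share was again the lowest, at 9.35%, and the loop of Henle-gated share the highest, at 17.3%. Exact 95% intervals of these shares cover counting error only, not the spread between cells or between libraries. They reached at most 0.0999 points on either side, far less than the gap between podocytes and nephron progenitors. Neighbouring classes lay closer together: in the transplant, stroma-gated cells gave 16.7% and macrophage-gated cells 16.5%. Some classes under 50 cells lay below podocytes. Intercalated-gated cells gave 10.9% at E17.5 (6 cells), 11.4% at P0 (25 cells) and 8.49% in the transplant (15 cells), and erythroid-gated cells 5.72% at E15.5 (29 cells). Distal tubule-gated cells lay below podocytes at E15.5 and P0 and above them at E17.5 and in the transplant.

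**Figure D1:**
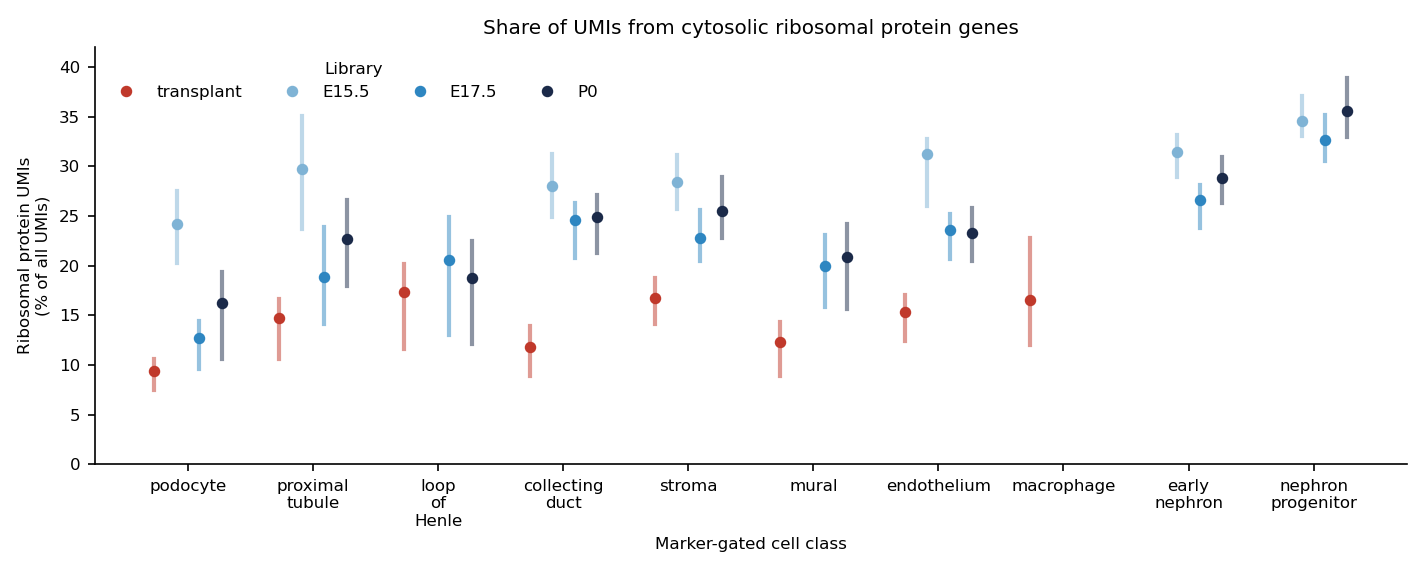
Share of all UMIs that came from the 81 cytosolic ribosomal protein genes, in percent, for each marker-gated class of at least 50 cells in a library. Points are pooled shares and bars span the middle quartiles of single cells; podocytes are the lowest class plotted in every library, and nephron progenitors highest in the 3 in situ libraries.

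The share varied from cell to cell within a class by more than UMI sampling gives. After thinning, the middle of the podocyte-gated cells at P0 ran from 10.6% to 19.3% between the quartiles and the whole range from 3.3% to 29.2%. Nephron progenitor-gated cells at P0 ran from 33.0% to 38.9% between the quartiles. Proximal tubule-gated cells spread widely at E15.5, from 23.7% to 35.1% between the quartiles. Among those proximal cells the share was lower where mitochondrial UMIs were higher, with Spearman's rho of -0.70 at E15.5 over 164 cells, -0.67 at E17.5 over 644, -0.57 at P0 over 703 and -0.55 in the transplant over 951. Both are shares of the same cell's UMIs, so these values are a description. In nephron progenitor-gated cells rho lay between 0.00 and 0.11.

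Podocyte-gated cells also held fewer ribosomal protein UMIs per cell than nephron progenitor-gated cells. They held 4431, 915 and 1047 at E15.5, E17.5 and P0, against 9069, 2959 and 5272 in nephron progenitor-gated cells. The other UMIs of podocyte-gated cells were 13912, 6296 and 5416 per cell, against 17148, 6113 and 9543. At E17.5 the other UMIs were thus about level while the ribosomal protein UMIs were not.

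Gene by gene, the whole set was lower in podocytes. The test took the 3 in situ libraries as replicates of the difference between classes, which differ in age and strain, and compared each class with nephron progenitor-gated cells over 13005 genes (edgeR, threshold an adjusted p of 0.05). In podocyte-gated cells 77 of the 78 tested members fell and none rose, with a median log2 change of -1.15, or 0.451-fold. Of all 13005 genes 25.3% fell and 23.6% rose, with a median of -0.03. The large and small subunits moved alike, with medians of -1.14 and -1.23.

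Rpl12 and Rplp0 had the deepest falls in podocytes. Rpl12, at the base of the stalk, stood at 1747, 478 and 813 CPM in podocytes at E15.5, E17.5 and P0, against 3485, 1829 and 2517 CPM in nephron progenitors. It fell by 1.67 ± 0.16 on the log2 scale (SE, edgeR adjusted p = 1.2e-07). Rplp0, the core of the stalk, stood at 3522, 2188 and 2694 CPM in podocytes, against 6323, 8659 and 8419 CPM in nephron progenitors. It fell by 1.64 ± 0.18 (SE, edgeR adjusted p = 4.9e-07), and its partners Rplp1 and Rplp2 fell by 1.60 and 1.17, the second of which lies near the median of the set. For Rpl12 and Rplp0 every podocyte value lies below every progenitor value. Rpsa, also known as a laminin receptor, fell by 1.62, and Rps4x, the X-linked small subunit protein, by 1.61. Rpl36a fell by 1.51, Rpl3, which lies near the peptidyl transferase centre, by 1.41, and Rpl39 by 1.15.

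The smallest falls in podocytes were those of Rps27, Rpl21, Rps27l and Rpl10. Rps27, a zinc finger protein of the small subunit, stood at 6039, 2939 and 4228 CPM in podocytes, against 5559, 4320 and 5647 CPM in nephron progenitors. At E15.5 podocytes were the higher class, as they were for Rpl10, and in the other libraries progenitors were. Rps27 fell by 0.45 ± 0.14 (SE, edgeR adjusted p = 0.012), and Rpl21, Rps27l and Rpl10 by 0.46, 0.51 and 0.58. The calls for Rps27, Rpl21 and Rpl10 were lost without E17.5 or without P0, and that for Rps27l without E17.5. Rps27 and Rps27l also lost the call with library totals in place of TMM factors. Rpl36al, a paralogue of Rpl36a, was the member that did not pass, with a log2 change of -0.24 ± 0.13 (SE, edgeR adjusted p = 0.14). At E15.5 it too was higher in podocytes, at 836 CPM against 798 CPM in progenitors.

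The other classes showed the same direction at a smaller size. Of the 78 members, 73 fell and 2 rose in proximal tubule-gated cells, with a median log2 change of -0.57, where 30.3% of all genes fell and 31.0% rose. In collecting duct-gated cells 76 fell and none rose, with a median of -0.58, where 20.5% and 21.7% of all genes did. In stroma-gated cells 73 fell and none rose, with a median of -0.57, where 20% and 21.9% of all genes did. In endothelium-gated cells 59 fell and none rose, with a median of -0.43, where 25.4% and 25.9% of all genes did. Early nephron-gated cells came closest to progenitors: 24 fell and none rose, with a median of -0.36, where 9.37% and 11.3% of all genes did. Where no member rose by edgeR, none was higher at an unadjusted p under 0.05 or by DESeq2 either.

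These counts depend on single libraries outside podocytes. In the order early nephron, collecting duct, proximal tubule, stroma and endothelium, the members that fell numbered 71, 76, 75, 76 and 74 without E15.5, 1, 53, 42, 34 and 11 without E17.5, and 0, 18, 24, 23 and 3 without P0. In podocytes the counts were 78, 73 and 74. How many of all genes were called in these smaller fits is not given here. A lower count therefore cannot be read as particular to the members. The early nephron count also moved with the settings: with plain library totals in place of TMM factors it was 5, and with the transplant added it was 9. The share of all genes called under these settings is not given here either.

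**Figure D2:**
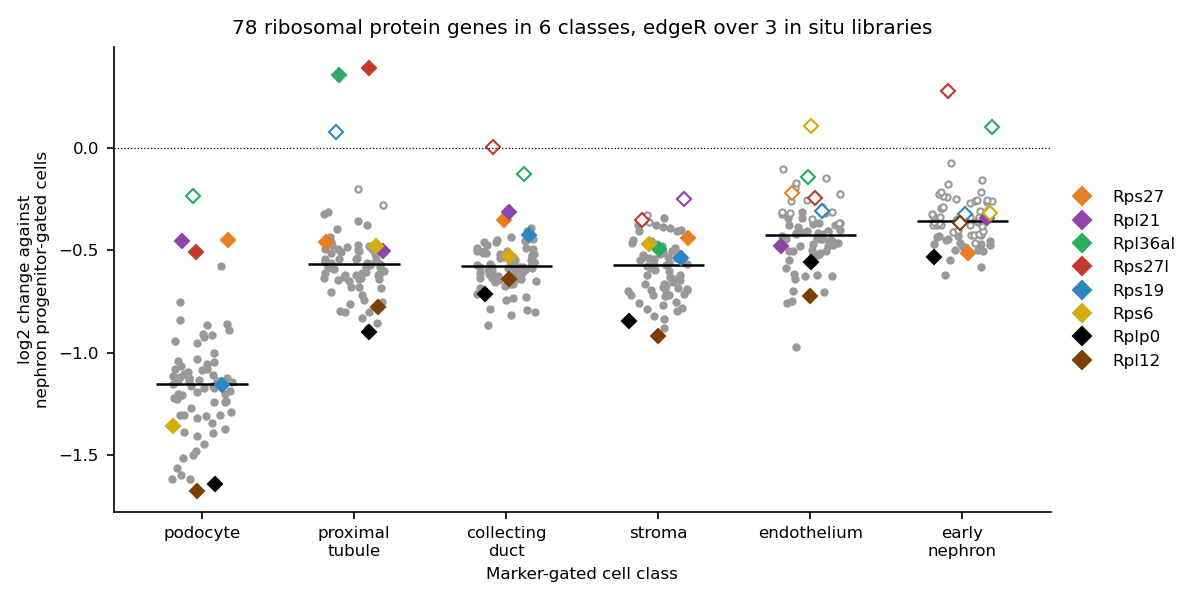
Log2 change of the 78 tested ribosomal protein genes in 6 classes against nephron progenitor-gated cells, from edgeR over the 3 in situ libraries. Each point is a gene, filled where its adjusted p was under 0.05, with the median as a line; the median is -1.15 in podocytes and between -0.58 and -0.36 in the other classes, and Rps27l and Rpl36al lie above 0 in the proximal tubule.

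In the proximal tubule the 2 members that rose were both paralogues of other members. Rps27l, a near relative of Rps27 that p53 is known to induce, stood at 697, 696 and 600 CPM in proximal tubule cells from E15.5, E17.5 and P0, against 648, 477 and 431 CPM in nephron progenitors. It rose by 0.39 ± 0.15 on the log2 scale (SE, edgeR adjusted p = 0.027). Rpl36al stood at 876, 883 and 803 CPM in proximal tubule cells, against 798, 607 and 630 CPM in progenitors, and rose by 0.35 ± 0.13 (SE, edgeR adjusted p = 0.023). Both genes were higher in all 3 libraries, by little at E15.5, and both calls were lost without E17.5 or without P0. Rps19 stood at 8338, 6747 and 8003 CPM in proximal tubule cells, against 6039, 7949 and 7908 CPM in progenitors. Its change did not pass (0.08 ± 0.15, SE, edgeR adjusted p = 0.67), and it differed in sign between E15.5 and E17.5.

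Genes that build ribosomes, and others with the same kind of start, were counted beside the members. The shares of all genes that fell and rose in each contrast, given above, apply to these counts too. Of 28 ribosome biogenesis genes, 22 fell in podocyte-gated cells against progenitors and none rose, with a median log2 change of -1.38. Npm1 and Fbl, a nucleolar chaperone and the methyltransferase of the box C/D particles, fell by 2.10 and 1.88. In stroma-gated cells 25 fell, in proximal tubule-gated cells 20 fell and 1 (Nop10) rose, in collecting duct-gated cells 19 fell, and in endothelium-gated cells 16 fell and 1 (Bysl) rose. In early nephron-gated cells none of the 28 passed in either direction by edgeR, with 1 lower and 2 higher at an unadjusted p under 0.05 and none by DESeq2, and their median was 0.02, beside -0.36 for the ribosomal protein genes. Mycn, which drives growth of progenitors, rose by 1.03 in early nephron-gated cells and fell by 2.02 in podocyte-gated cells.

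Of 18 translation factors and other genes with a terminal oligopyrimidine tract, 14 fell and 1 (Eif4a2) rose in podocyte-gated cells, with a median of -0.66. Eef1b2, a subunit of the elongation factor 1 exchange complex, fell by 1.77, and Eef1a1 by 0.90. The counts that fell were 15 in the proximal tubule, 14 in stroma, 12 in the collecting duct, 11 in endothelium and 7 in the early nephron. Among the genes outside the naming rule, Rack1 and Fau fell by 1.27 and 0.71 in podocyte-gated cells. The 78 genes of the mitochondrial ribosome went another way in the proximal tubule, where 44 rose and 1 fell with a median of 0.44. In podocytes 21 of them fell, near the 25.3% of all genes that fell, and 5 rose, where 23.6% of all genes did.

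Cycle and stress genes were counted in the same contrasts. Of all genes, 25.3% fell in podocytes, 30.3% in the proximal tubule, 20.5% in the collecting duct, 20% in stroma, 25.4% in endothelium and 9.37% in the early nephron. In that order 23.6%, 31.0%, 21.7%, 21.9%, 25.9% and 11.3% of all genes rose. All 12 proliferation genes fell in podocyte-gated and in proximal tubule-gated cells, with medians of -2.78 and -1.79, and 9 fell in collecting duct-gated cells. In stroma-gated and endothelium-gated cells 3 and 5 proliferation genes rose and none fell, the first of these near the share of all genes. In early nephron-gated cells 7 rose and none fell. Of 14 dissociation stress genes, 9 rose and 1 fell in podocyte-gated cells, and 7 rose and 1 fell in collecting duct-gated cells. In stroma-gated cells 8 rose and 1 fell, in endothelium-gated cells 5 rose and 1 fell, and in proximal tubule-gated cells 3 rose and 2 fell. In early nephron-gated cells 6 of them fell and none rose, with a median of -0.96. Their part in the ribosomal protein values was not tested.

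Within a class, cells with and without proliferation UMIs were compared library by library. Nephron progenitor-gated cells with at least 2 such UMIs gave 33.3%, 30.2% and 32.4% of UMIs to ribosomal protein genes at E15.5, E17.5 and P0, against 36.4%, 34.2% and 37.5% in those with none. The difference, cycling minus other, was -3.04, -3.97 and -5.05 points, and the cycling cells also held more UMIs, with medians of 29379, 10690 and 16331, against 22560, 6864 and 11290. In stroma-gated cells the differences were -1.16, -1.33 and -3.5 points. In endothelium-gated cells the differences were 0.62, 0.90 and -0.28 points, and in collecting duct-gated cells -0.75, 1.56 and 0.05, with no common sign. An exact sign-flip test over so few libraries cannot reach 0.05, and none was made.

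Apart from their sum, the members differed between classes in their share of the set. Each was tested as a share of all ribosomal protein UMIs, each class against the mean of the other 6 over the 3 in situ libraries. Podocytes stood furthest apart, with 20 members lower and 16 higher, where 8.02% and 53.2% of all genes were called on this scale, a scale on which other genes rise as the ribosomal protein total falls. Proximal tubule-gated cells had 10 lower and 12 higher (25.6% and 30.6% of all genes), endothelium-gated 10 and 11 (29.9% and 22.3%), nephron progenitor-gated 10 and 9 (57% and 6.45%), stroma-gated 9 and 9 (15.5% and 24.2%), early nephron-gated 8 and 6 (26.6% and 15.1%) and collecting duct-gated 5 and 0 (11.0% and 20.3%). Most of these counts were smaller without E17.5 or without P0. Lower and higher, podocytes had 10 and 10 without E17.5 and 10 and 7 without P0, the proximal tubule 0 and 4 in both cases, and endothelium 5 and 4 without E17.5 and 2 and 2 without P0. Nephron progenitors had 3 and 4 without E17.5 and 4 and 5 without P0, stroma 1 and 3 and then 0 and 3, and the early nephron 2 and 2 and then 1 and 1. The collecting duct had 1 lower without E17.5 and 0 without P0. Without E15.5 the proximal tubule had 17 lower and the collecting duct 3 higher. The share of all genes called in these smaller fits is not given here either.

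Rps19 (ENSMUSG00000040952, chr7:24884371-24889806 in GRCm38) set the proximal tubule apart. This small subunit protein took 2.80%, 3.57% and 3.52% of ribosomal protein UMIs in proximal tubule-gated cells from E15.5, E17.5 and P0, and between 1.70% and 3.02% in every other class of these libraries. Within each library the proximal tubule was the highest class, as it was in the transplant, where it reached 4.98% and the loop of Henle, the next class, 3.20%. The log2 difference from the other 6 classes was 0.57 ± 0.04 (SE, edgeR adjusted p = 2e-10). Rps27l and Rpl36al were higher there by 0.57 and 0.55, with SEs of 0.13 and 0.11, and the call for Rps27l was lost without E17.5, at 0.44.

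Rps27 (chr3:90212522-90213651) and Rpl21 (chr5:146832890-146837032) set podocytes apart. Rps27 took 2.50%, 2.32% and 2.61% of ribosomal protein UMIs in podocyte-gated cells from E15.5, E17.5 and P0, and the next class in each library had 1.89%, 1.60% and 1.96%. The difference was 0.63 ± 0.05 on the log2 scale (SE, edgeR adjusted p = 3.3e-09). Rpl21, a large subunit protein, took 1.12%, 2.06% and 1.40% in podocytes, and the next class had 0.993%, 1.32% and 1.23%. Its difference was 0.63 ± 0.07 (SE, edgeR adjusted p = 1.5e-07), with the widest lead at E17.5. In the transplant, which the test did not use, podocytes were again highest for both, at 3.11% and 2.33%. Rpl36al and Rpl10 were higher in podocytes by 0.57 and 0.39, while Rplp1, Rps2 and Rpsa were lower by 0.42, 0.41 and 0.40.

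**Figure D3:**
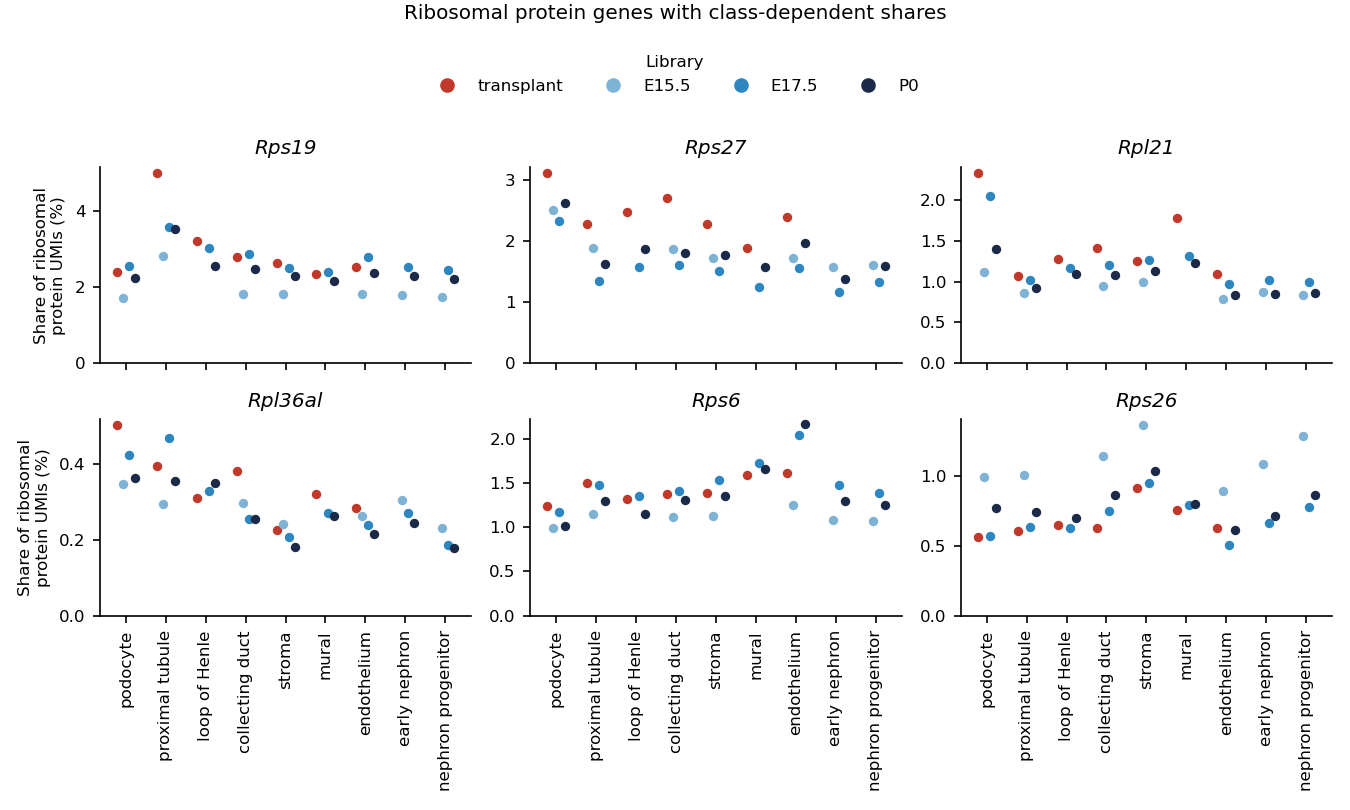
Share of all ribosomal protein UMIs taken by 6 members, in percent, by marker-gated class, with 1 point for each library. Rps19 is highest in the proximal tubule, Rps27 and Rpl21 in podocytes, Rps6 in endothelium and Rps26 in stroma in every library plotted.

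Rps6 stood out in the endothelium and Rps26 in the stroma. Rps6, the small subunit protein phosphorylated by the S6 kinases, took 1.26%, 2.05% and 2.17% in endothelium-gated cells from E15.5, E17.5 and P0, higher than in any other class of the same library. The log2 difference was 0.53 ± 0.07 (SE, edgeR adjusted p = 1.4e-06). Its lead at E15.5 was small, since the proximal tubule had 1.15%. Rps26, which contacts messenger RNA at the exit channel, took 1.36%, 0.953% and 1.04% in stroma-gated cells, the highest class of each library, and 0.891%, 0.506% and 0.612% in endothelium-gated cells, the lowest. The differences from the other classes were 0.46 ± 0.06 and -0.43 ± 0.06 (SE, edgeR adjusted p = 1.4e-06 and 8.1e-06). Early nephron-gated cells had a higher share of Rps2 (0.41) and a lower share of Rps27 (-0.37). The calls named here for Rps19, Rps27, Rpl21, Rps6, Rps26 and Rps2 held when any 1 of the 3 libraries was left out.

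The paralogues Rps27l and Rpl36al took a smaller share of the set in nephron progenitors. Rps27l and Rpl36al took 0.187%, 0.146% and 0.121%, and 0.231%, 0.186% and 0.177%, of ribosomal protein UMIs in nephron progenitor-gated cells from E15.5, E17.5 and P0. They were lower than in the other classes by log2 differences of -0.54 and -0.52, and Rps4x and Rplp0 were higher by 0.27 and 0.25. The call for Rps27l was lost without E17.5, at -0.44. Of Rps27l and Rps27 together, Rps27l gave 10.4%, 9.95% and 7.10% in nephron progenitors, and 11.0%, 21.6% and 14.0% in the proximal tubule. Of Rpl36al and Rpl36a, Rpl36al gave 20.3%, 19.5% and 17.7% in nephron progenitors, 24.4%, 39.1% and 31.1% in the proximal tubule and 33.5%, 39.9% and 35.7% in podocytes. Stroma was close to progenitors, at 20.5%, 20.5% and 17.5%. How reads shared by such near-identical genes were counted is not given in the sources used here, so the split within a pair is uncertain.

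Between libraries no test can be made, and the ratios below carry counting error only. P0 held a lower ribosomal protein share than E15.5 in 6 of 7 classes, with a median fold of 0.887. Podocytes had the lowest fold at 0.670 [0.667, 0.674], and endothelium and proximal tubule had 0.746 and 0.764. Nephron progenitor-gated cells were the exception, at 1.03 [1.03, 1.03]. Over the 546 pairs of member and class, 22.5% were lower by at least 1.5 times and 0.549% higher, where 21.6% of all gene and class pairs were lower and 15.8% higher.

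E17.5 was below E15.5 in all 7 classes, with a median fold of 0.801 and folds from 0.526 in podocytes to 0.943 in nephron progenitors. Of the 546 pairs 38.1% were lower by at least 1.5 times and 1.10% higher, where 12.7% of all pairs were lower and 17.0% higher. The dissociation stress genes took more of the UMIs at the same time. In podocyte-gated cells they summed to 11287 CPM at E17.5 and to 17775 CPM at P0, against 3961 CPM at E15.5. Their part in the lower ribosomal protein share was not tested.

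The transplant had a lower share than P0 in all 7 classes, with a median fold of 0.649. Collecting duct-gated cells were at 0.477 [0.475, 0.478], podocytes at 0.577, mural cells at 0.593, proximal tubule at 0.649, stroma at 0.657 and endothelium at 0.658, and the loop of Henle came nearest to P0 at 0.926 [0.923, 0.928]. In collecting duct-gated cells mitochondrial UMIs took 7.89% in the transplant, against 4.22% at P0. Distal tubule markers summed there to 8045 CPM in the transplant, against 1144 CPM at P0, and intercalated cell markers to 894 CPM, against 47.6 CPM. Their part in the lower share was not tested. Of the 546 pairs 65.4% were lower by at least 1.5 times and 0.183% higher, where 13.3% of all pairs were lower and 31.3% higher. Per cell, loop of Henle-gated cells held 2667 ribosomal protein UMIs in the transplant, against 1933 at P0, while podocyte-gated cells held 814, against 1047. All UMIs per cell were 15402 in the transplant and 10333 at P0 in the loop, and 8705 and 6462 in podocytes. Stress genes summed to 7656 CPM in podocytes of the transplant, against 17775 CPM at P0, and to 15353 CPM in its stroma, against 14014 CPM.

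Against E17.5, the library nearer to it in strain label and in software version, the transplant was also lower in all 7 classes, with a median fold of 0.734 and folds from 0.482 in the collecting duct to 0.844 in the loop of Henle. Of the pairs 44.3% were lower by at least 1.5 times and none was higher, where 14.7% of all pairs were lower and 24.1% higher. Of 28 ribosome biogenesis genes, 15 were lower by at least 1.5 times in the proximal tubule in this comparison, 14 in the collecting duct and 10 in the loop of Henle. In stroma and in endothelium 9 were lower, and in mural cells 12 of 26 tested. In podocytes 6 were lower and 3 higher, where 16.9% of all genes were lower and 18.3% higher. The medians ran from -0.61 in the proximal tubule to -0.06 in podocytes. Against P0 the podocyte median was 0.25, with 7 lower and 7 higher. The 2 transplant comparisons share the transplant library.

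The members did not move as one between libraries. Rps21, a small subunit protein, took between 0.815% and 1.01% of ribosomal protein UMIs in the classes of E15.5, 0.354% to 0.421% at E17.5, 0.440% to 0.585% at P0 and 0.411% to 0.561% in the transplant. The E15.5 classes stood above all others. Against E15.5 its level had a median log2 ratio over classes of -1.62 at E17.5 and -1.09 at P0. Rps12, Rpl12, Rps28 and Rpl38 followed at E17.5, with median log2 ratios of level of -1.19, -1.30, -1.37 and -1.06. At the other end, Rpl29 was higher in all 7 classes in both comparisons, with median log2 ratios of level of 1.29 at E17.5 and 0.52 at P0.

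Rpl29 (chr9:106429454-106431568), a large subunit protein, went by library far more than by class. It took 0.296% to 0.340% of ribosomal protein UMIs in the classes of E15.5, 0.859% to 1.02% at E17.5, 0.481% to 0.531% at P0 and 0.666% to 0.968% in the transplant. No class of one in situ library overlapped any class of another. The libraries labelled C57BL/6 and C57BL/6N were both above those labelled ICR, and these are also the 2 whose file headers give software version 3.1.0, so strain, software and library cannot be told apart.

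In the transplant against P0, Rps27l was higher in level in all 7 classes, with a median log2 ratio of 0.27 and of 1.01 as a share of the set. In podocytes it took 0.449% in the transplant, against 0.223% at P0. Against E17.5 the level of Rps27l had no common direction. It was lower in the collecting duct, loop of Henle, stroma and endothelium, and higher in the proximal tubule, podocytes and mural cells. Endothelium held 412 CPM in the transplant and 495 CPM at E17.5, and podocytes 420 and 339 CPM. Rpl41, a peptide of the large subunit with the shortest coding sequence of the set, took 3.15% to 4.06% in the classes of the transplant and of E15.5, and 2.10% to 2.80% at P0 and E17.5. Rps12 stood lowest in the transplant, at 0.471% to 0.636%, against 0.741% to 0.975% at P0, with a median log2 ratio of level of -1.38. Rpl28, Rpl12 and Rps10 followed at -1.11, -1.10 and -1.09.

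**Figure D4:**
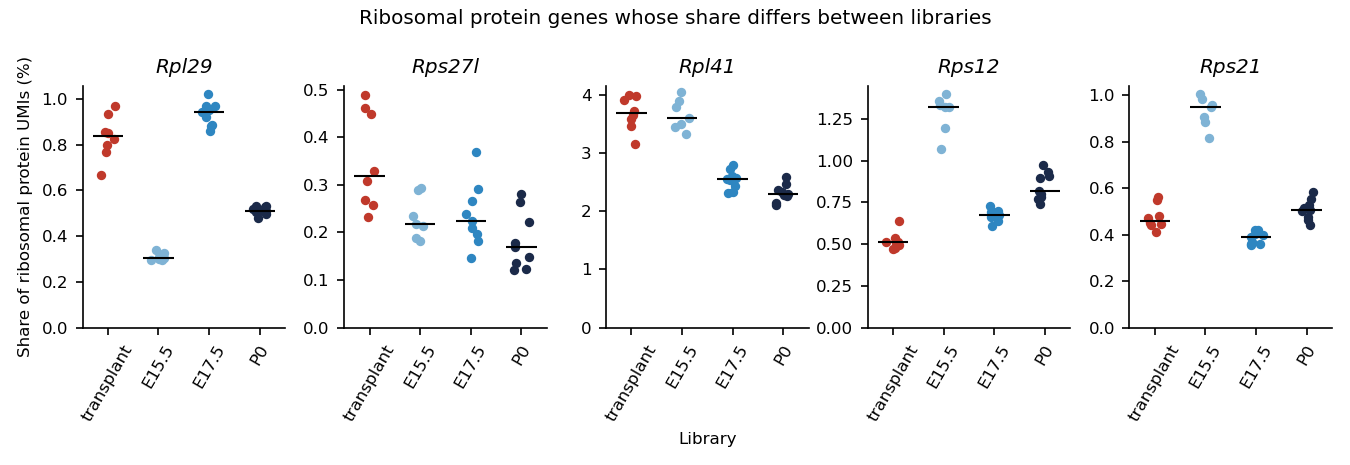
Share of all ribosomal protein UMIs taken by 5 members, in percent, by library. Each point is a marker-gated class of at least 50 cells and the line is the median of the classes; Rpl29 lies between 0.296% and 0.340% at E15.5 and between 0.859% and 1.02% at E17.5, and Rps21 is highest at E15.5.

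The change from E15.5 ran with the length of the coding sequence. For the 27 members whose coding sequence was under 400 bases the median log2 ratio of level was -0.69 at E17.5 and -0.49 at P0, against E15.5, and for the 51 longer ones it was -0.15 and -0.04. Across the 78 members, which are not independent replicates and share each library, Pearson's r of log2 coding length with the log2 ratio of the share of the set was 0.54 at E17.5 and 0.62 at P0, and Spearman's rho 0.59 and 0.65. Between the transplant and P0 the relation was weaker and of the other sign, with r at -0.27 and rho at -0.19, and between the transplant and E17.5 r was -0.49 and rho -0.36. In the class contrasts, set against the log2 change of the level, r lay between -0.38 and -0.02.

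**Figure D5:**
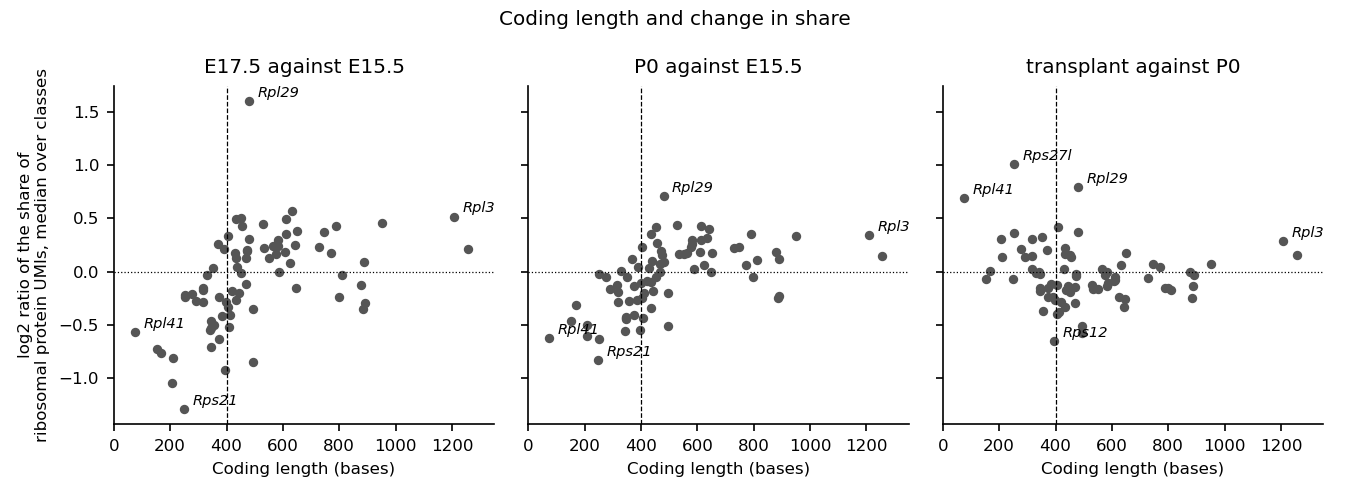
Coding length of 78 ribosomal protein genes in bases against the log2 ratio of their share of ribosomal protein UMIs, as the median over classes, for 3 pairs of libraries. The dashed line marks 400 bases; members shorter than that lie mostly below 0 at E17.5 and P0 against E15.5, and Rpl29 lies above the rest in both.

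The paralogue Rpl22l1 followed the libraries too. Of the UMIs of Rpl22l1 and Rpl22 together, Rpl22l1 gave 46.6% to 55.1% in the classes of E15.5, 59.9% to 71.4% at E17.5 and 58.2% to 64.5% at P0, and 46.7% to 72.7% in the transplant, where macrophages were the lowest class. In podocytes it gave 48.1%, 70.9% and 62.5% at E15.5, E17.5 and P0. Rps27rt, a further copy of Rps27, gave at most 3.38% of the UMIs of the pair it forms with Rps27.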

How the data were processed

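Droplet single-cell libraries (10x 3′ chemistry, version 2) were measured in 4 samples. The values are UMI counts per gene and cell barcode, as deposited by the authors. Per the submitters' processing notes they were made with Cell Ranger 3.1.0 on GRCm38. Per the file headers, the E17.5 and transplant matrices were written by software version 3.1.0, and those of E15.5 and P0 by 3.0.2. How reads shared by near-identical genes were counted, and whether strand was used, is not given in the sources used here. A deposited joined matrix was not used.

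Cells needed at least 500 genes and at most 20% mitochondrial UMIs. The top Scrublet scores were removed as doublets (scanpy 1.11.5; 0.8% per 1000 cells). The marker gate is described with the groups; its scoring rule was chosen after the markers. Counts were summed per class and library. Classes with at least 30 cells in each in situ library were tested with edgeR 4.0.16 (R 4.3.3): TMM, filterByExpr, quasi-likelihood test with library as a term, Benjamini-Hochberg adjustment over 13005 genes, threshold 0.05. The test of shares of ribosomal protein UMIs uses their total as library size and was added after seeing the data. DESeq2 1.42.0 was an alternative. The tests were tried on simulated data. Nothing in the labels says that a library came from several separate animals. Libraries were compared by ratios of CPM with exact binomial 95% intervals, in classes of at least 50 cells, with a fold of 1.5 as the size rule and no test.

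Members and lists were chosen with earlier results of these data known. Named members are the 5 highest and 5 lowest of a comparison, a fixed set of paralogues and stalk proteins, and the 10 with the largest shares; some of these are not reported here. Leaving out each in situ library, other gates, filters and scalings were the alternatives.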

Additional observations from a re-analysis of the deposited data

Results flagged for a closer look

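The ribosomal protein share of nephron progenitor-gated cells was higher at P0 than at E15.5, at 35.6% against 34.6% (fold 1.029), while the other 6 classes had folds below 1, from 0.670 in podocytes to 0.917 in the early nephron. With 1 library for each age this difference between classes was not tested. At P0, 39.3% of the nephron progenitor-gated cells had exactly 3 markers, the least the gate allows, against 28.7% at E15.5.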

How the results depend on the processing

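Limits: each age and the graft is 1 library, the gate rests on few markers a cell, and single libraries decide many class calls outside podocytes. Of 912 single-gene class results recomputed, 812 kept direction and side of the threshold, 98 kept direction only, 1 gained the call and 1 turned: Rps19 in the proximal tubule was at -0.07632 without E15.5 and at up to 0.1982 without another library. Of 504 results for shares of the set, 426 kept both and 78 kept direction only. Both sets hold named members only, among them the most extreme of each comparison. Apart from Rpl36al in podocytes and Rps19 in the proximal tubule, only results that had passed the threshold were taken. These counts therefore do not describe all members. No paired analysis was possible because, between libraries, each group has 1 sample and the groups share fewer than 2 replicate numbers; the class tests hold the library as a term in the fit.

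Leaving out 1 library gave 0 to 71 members lower in the early nephron, 18 to 76 in the collecting duct, 73 to 78 in podocytes, 24 to 75 in the proximal tubule, 23 to 76 in stroma and 3 to 74 in endothelium, with 0 to 2 higher in the proximal tubule. The early nephron count was 5 with library totals alone, 38 with no filter, 15 with a gate of 4 markers and 9 with the transplant added. As shares of ribosomal protein UMIs against progenitors, the members lower and higher were 2 and 4 in the early nephron, 5 and 7 in the collecting duct, 20 and 16 in podocytes, 12 and 10 in the proximal tubule, 10 and 10 in stroma and 11 and 8 in endothelium. The share of all genes called is not given here for any of these alternatives. The counts therefore cannot be read as particular to the members.

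For shares of the set against the other 6 classes, leaving out 1 library gave 3 to 14 lower and 4 to 10 higher in nephron progenitors, 1 to 10 and 1 to 8 in the early nephron, 0 to 6 and 0 to 3 in the collecting duct, 10 to 23 and 7 to 18 in podocytes, 0 to 17 and 4 to 13 in the proximal tubule, 0 to 13 and 3 to 12 in stroma, and 2 to 13 and 2 to 12 in endothelium. For the fits with 1 library left out, by level or by share, the share of all genes called is not given here.

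Classes of at least 50 cells numbered 8 in the transplant, 7 at E15.5 and 9 at both E17.5 and P0, so the medians here run over different classes. The transplant set lacks nephron progenitors and the early nephron and holds macrophages, and the E15.5 set lacks the loop of Henle and mural cells. The median share over classes was 15.03% in the transplant, 29.74% for E15.5, 22.78% for E17.5 and 23.3% for P0. In that order it was 14.94%, 30.62%, 22.94% and 23.45% with a gate of 2 markers, 15% (transplant), 29.16%, 22.72% and 23.33% with 4 markers, and 15.06%, 29.68%, 22.85% and 23.37% with no doublet removal. Without mitochondrial and globin UMIs it was 15.7%, 31.5%, 23.5% and 23.97%. With the gate read from all UMIs it was 14.87% in the transplant, 30.9% at E15.5 and 23.43% at P0, and as a mean over cells 14.19%, 28.85% and 22.89%. With at most 10% mitochondrial UMIs it was 15.25% in the transplant and 30.27% at E15.5.

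The median log2 ratio of the share kept its sign in every comparison. For P0 against E15.5 it was -0.1869 with 4 markers, -0.1661 with all UMIs, -0.1674 with the mitochondrial limit, -0.18 without mitochondrial and globin UMIs and -0.1886 as a mean over cells. For E17.5 against E15.5 it was -0.3091 with 4 markers, -0.3341 without mitochondrial and globin UMIs and -0.306 as a mean over cells. For the transplant against P0 it was -0.6712 and -0.6108 with 2 and 4 markers, -0.6729 with all UMIs, -0.6033 with the mitochondrial limit, -0.6293 with no doublet removal, -0.6178 without mitochondrial and globin UMIs, -0.7221 as a mean over cells and -0.615 without collecting duct-gated cells. For the transplant against E17.5 it was -0.5606 with 2 markers, -0.5889 with all UMIs, -0.4548 with no doublet removal and -0.5004 as a mean over cells.

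By level, 14 members were at least 1.5 times lower and none higher at P0 against E15.5, 24 and 1 at E17.5 against E15.5, 57 and 0 in the transplant against P0, and 32 and 0 against E17.5. As shares of the set these counts were 4 and 1, 9 and 1, 1 and 3, and 0 and 2. All of these counts take the median over classes, and the share of all genes that passes the same rule is not given here. By pair of member and class, 22.5% were lower at P0 against E15.5, near the 21.6% of all pairs. The cycling difference in collecting duct-gated cells at P0 turned to -0.09867 points with at least 1 proliferation UMI. The causes were not tested.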
